A study of Mus musculus with 4 samples.

Results

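Resident Kupffer cells were examined through 10 marker genes in whole livers of WT and Brg1 LKO mice that had gone through the NIAAA ethanol procedure. The genes were taken by symbol from the deposited FPKM table: Clec4f, Vsig4, Timd4, Cd5l, Marco, Folr2, the C1q chain genes C1qa, C1qb and C1qc, and Emr1, the older symbol under which the table lists Adgre1. They are 10 of its 22103 entries, and they were chosen because macrophage markers were higher in Brg1 LKO than in WT in this same table, so they were selected on the measured values compared here. The difference between the genotypes is therefore a description for these genes, and no test of it is given.

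Liver RNA came from 2 WT mice and 2 Brg1 LKO mice, labelled KO. In the Brg1 LKO mice a floxed Smarca4 gene, which encodes the chromatin remodelling ATPase Brg1, was deleted by Cre driven from the Alb promoter, and the WT mice were their littermates. Alb is active in hepatocytes, so the deletion was aimed at hepatocytes and not at Kupffer cells. All 4 livers came from young adult male mice that had been given alcohol for 15 days according to the labels, which the study's methods describe as an ethanol liquid diet that ended with a single ethanol gavage. No liver of a mouse without alcohol is part of the series. The low FPKM values stepped with the value of 1 read, which put the depth at 80915580 and 79874660 reads for WT and at 78152980 and 72580400 reads for Brg1 LKO. Each step may stand for a single read or for a pair, so only the relative depth of the livers is sure.

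Smarca4, the targeted gene, lies on chromosome 9 of GRCm38 from 21616169 to 21704230. It was at 1.78 and 1.95 FPKM in WT and at 0.608 and 0.579 FPKM in Brg1 LKO. The log2 difference was −1.50 with a standard error of 0.34, which passed the threshold of the study but not the adjustment over all genes (limma, unadjusted p = 0.000548, Benjamini-Hochberg adjusted p = 1). FPKM, the number of fragments scaled to transcript length and library total, is a level per length. Differences were computed on log2(FPKM + 0.1), a scale that understates the change of low genes. The study's threshold is an unadjusted p under 0.05 with a difference of more than 2-fold. Among 12346 genes tested, those averaging 0.1 FPKM or more, 0.98% passed it (limma), 247 had an unadjusted p under 0.05, and 0 had an adjusted p under 0.05. With 2 livers in each group no permutation test can give a p below 0.333. Of 4 values in a row, the first pair belongs to WT replicates 1 and 2 and the second to Brg1 LKO replicates 1 and 2, and replicate 1 or 2 without a genotype means a Brg1 LKO liver.

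Kupffer cells are the macrophages that reside in the liver sinusoids. Most of them descend from embryonic precursors and renew themselves in place, held by signals from endothelial cells, stellate cells and hepatocytes. They take up bacteria, aged erythrocytes, lipoproteins and dying cells from the blood that passes, and they are best known in alcoholic liver injury for answering endotoxin that leaks from the gut. Their identity is set by the macrophage factor PU.1, by MAF family factors and by the nuclear receptor LXRα. When Kupffer cells are lost, monocytes from the blood can settle in the niche and acquire Clec4f before they acquire Timd4, so both genes are often read together.

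Promoter sequences are shown first, because the genes were read as a group and PU.1 and MAF factors are their known regulators. RefSeq entries on GRCm38.p6 gave windows of the 250 bases before the transcript start for 8 of the 10 genes, 9 windows in all since Folr2 has a pair of starts. C1qa and Emr1 had no entry. Both strands were searched for the PU.1 core GAGGAA and for the MAF half-site TGCTGA, and no match of one overlapped a match of the other in the windows printed. The following 4 windows held at least 2 matches and no annotated exon. They are printed 5′ to 3′ on the strand of the gene, with the matches in capitals, where TTCCTC and TCAGCA are the same motifs read on the opposite strand.
Cd5l, chr3:87357631-87357880, plus strand: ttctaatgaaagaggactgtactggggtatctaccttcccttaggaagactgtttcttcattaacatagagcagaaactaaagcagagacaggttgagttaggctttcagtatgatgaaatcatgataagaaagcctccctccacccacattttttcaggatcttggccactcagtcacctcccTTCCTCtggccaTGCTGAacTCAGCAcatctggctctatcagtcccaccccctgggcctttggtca
Vsig4, chrX:96293439-96293688, minus strand: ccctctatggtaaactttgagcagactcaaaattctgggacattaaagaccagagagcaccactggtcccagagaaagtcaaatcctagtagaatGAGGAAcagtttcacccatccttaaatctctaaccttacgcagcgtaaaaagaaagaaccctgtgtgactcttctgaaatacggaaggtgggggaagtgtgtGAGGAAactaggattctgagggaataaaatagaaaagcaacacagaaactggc
Timd4, chr11:46810549-46810798, plus strand: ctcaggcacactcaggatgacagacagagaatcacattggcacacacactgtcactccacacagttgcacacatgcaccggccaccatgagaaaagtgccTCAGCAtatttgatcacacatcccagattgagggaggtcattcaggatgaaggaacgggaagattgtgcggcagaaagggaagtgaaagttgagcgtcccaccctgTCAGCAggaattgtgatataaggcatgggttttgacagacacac
C1qb, chr4:136886201-136886450, minus strand: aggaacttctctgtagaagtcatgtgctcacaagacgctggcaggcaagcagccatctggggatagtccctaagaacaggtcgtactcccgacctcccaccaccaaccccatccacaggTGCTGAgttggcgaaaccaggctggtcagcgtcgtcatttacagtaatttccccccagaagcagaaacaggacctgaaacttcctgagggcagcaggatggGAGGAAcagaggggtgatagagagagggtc

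The matches of Cd5l stood close together, with the PU.1 core starting 66 bases before the transcript start and MAF half-sites starting at 54 and 46 bases. Vsig4 held PU.1 cores at 155 and 53 bases, Timd4 held MAF half-sites at 150 and 44 bases, and C1qb held 1 of each at 30 and 131 bases. A PU.1 core was found in 5 of the 9 windows (5 of the 8 genes) and in 23.4% of the 32536 RefSeq promoter windows of the same length. A MAF half-site was found in 6 of the 9 windows (5 of the 8 genes) and in 16.1% of all windows. The LXR element, a direct repeat of AGGTCA with 4 free bases between the copies, was in 0 of the 9 windows and in 0.0154% of all windows. Such matches are letters in a window and show no binding.

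All 10 genes were expressed in every liver. In the WT livers the levels ran from 0.358 FPKM for Emr1 to 11.9 FPKM for C1qa, and in decreasing order they were C1qa, Clec4f, C1qb, C1qc, Cd5l, Vsig4, Marco, Folr2, Timd4 and Emr1. Vsig4 and Marco were the only neighbours in this order whose WT values overlapped. The order was close to the same in every liver, with changes of place between neighbours and with Marco moving from rank 6 or 7 to rank 8 in Brg1 LKO replicate 2. Summed over the 10 genes, the level was 46.9 and 48.2 FPKM in WT, 60.3 FPKM in Brg1 LKO replicate 1 and 134 FPKM in Brg1 LKO replicate 2. The genotypes thus did not overlap in the sum, and most of the distance lay between the Brg1 LKO livers. In a whole liver, more Kupffer cells and more RNA per Kupffer cell cannot be told apart.

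**Figure D1:**
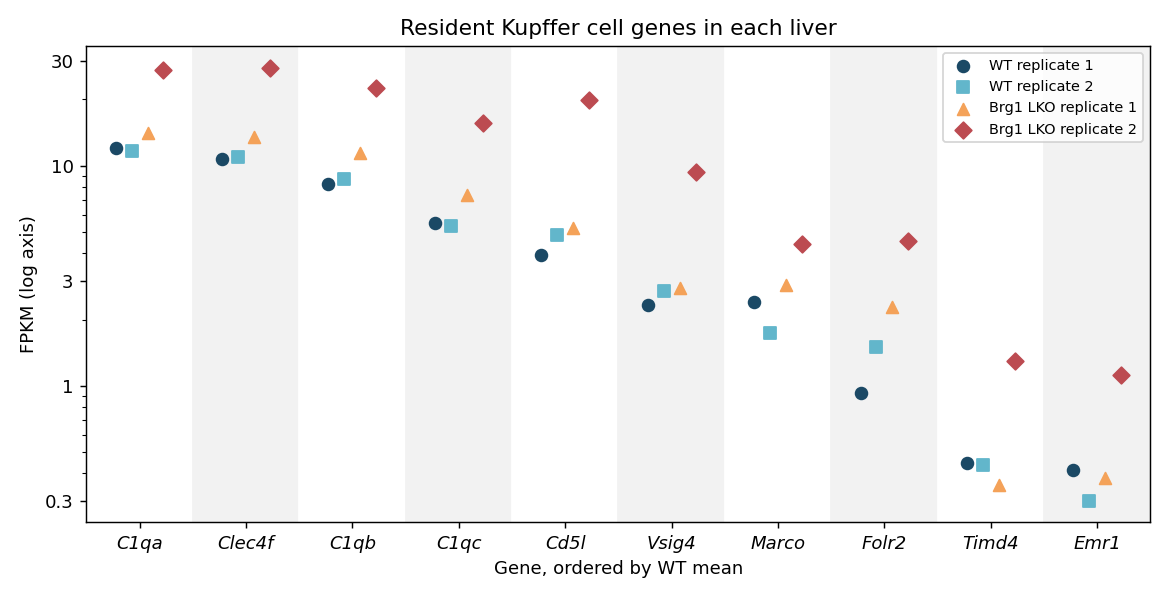
FPKM of each of the 10 resident Kupffer cell genes on a log axis, in the order of the WT means, with 1 point per liver. Brg1 LKO replicate 2 is the highest point for all 10 genes, while Brg1 LKO replicate 1 lies above both WT livers for 8 of them and below both for Timd4.

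Among the surface receptors, Clec4f, the galactose-binding lectin that is the most specific marker of mouse Kupffer cells, lies on chromosome 6 from 83644542 to 83656187 and has 7 exons. It was at 10.7 and 10.9 FPKM in WT and at 13.5 and 27.9 FPKM in Brg1 LKO, resting on about 2135, 2161, 2615 and 5006 reads. Both Brg1 LKO livers were above both WT livers, and replicate 2 was at 2.06 times the level of replicate 1. The group means were 10.8 ± 0.190 and 20.7 ± 10.2 FPKM (SD, n = 2 each), a ratio of 1.92.

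Vsig4, the complement receptor CRIg that binds C3 fragments on bacteria in the sinusoid, lies on the X chromosome from 96247203 to 96293438. WT had 2.33 and 2.69 FPKM, and Brg1 LKO had 2.79 and 9.32 FPKM. Replicate 1 stood just above the WT livers, and replicate 2 was at 3.71 times the WT mean. The group means were 2.51 ± 0.256 and 6.05 ± 4.62 FPKM (SD, n = 2 each), a log2 difference of 1.00.

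Timd4, the phosphatidylserine receptor Tim-4 by which long-established Kupffer cells take up dying cells, lies on chromosome 11 from 46810800 to 46844332. Its WT values were nearly equal at 0.444 and 0.438 FPKM, and Brg1 LKO had 0.353 and 1.30 FPKM, resting on about 78, 76, 60 and 205 reads. The groups overlapped, since replicate 1 was the lowest of the 4 livers and replicate 2 the highest. The means were 0.441 ± 0.00410 FPKM in WT and 0.826 ± 0.669 FPKM in Brg1 LKO (SD, n = 2 each), a log2 difference of 0.56 that had the opposite sign, −0.25, in replicate 1.

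Marco, a class A scavenger receptor that binds bacteria and particles, lies on chromosome 1 from 120474538 to 120505024 and has 17 exons. It was at 2.41 and 1.74 FPKM in WT and at 2.86 and 4.40 FPKM in Brg1 LKO. The groups did not overlap, but replicate 1 was nearer to WT replicate 1 than the WT livers were to each other. Of the 10 genes, Marco differed least between the Brg1 LKO livers, by a ratio of 1.54, and its group means were 2.07 ± 0.479 and 3.63 ± 1.09 FPKM (SD, n = 2 each).

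Folr2, the folate receptor β of resident macrophages, lies on chromosome 7 from 101839988 to 101845317. It had 0.928 and 1.51 FPKM in WT and 2.29 and 4.56 FPKM in Brg1 LKO. It was the gene with the largest log2 difference of the 10, 1.38, and the only one for which replicate 1 approached 2-fold, at 1.88 times the WT mean. It was also the gene with the widest WT values, with a ratio of 1.63 between them. The antisense gene Gm10602 overlaps Folr2 on the opposite strand, and whether the FPKM values were computed by strand is not given in the sources used here.

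Emr1 encodes F4/80, the adhesion receptor by which mouse tissue macrophages are usually stained, and lies on chromosome 17 from 57358691 to 57483527 with 22 exons. WT had 0.415 and 0.301 FPKM, and Brg1 LKO had 0.382 and 1.12 FPKM, resting on about 109, 78, 97 and 264 reads. Replicate 1 lay between the WT livers, so the groups overlapped, and replicate 2 was at 3.14 times the WT mean. The group means were 0.358 ± 0.0808 and 0.754 ± 0.525 FPKM (SD, n = 2 each).

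Of the secreted products, Cd5l, the apoptosis inhibitor of macrophages that circulates in the blood and is a target of LXR, lies on chromosome 3 from 87357881 to 87371073. It was at 3.92 and 4.85 FPKM in WT and at 5.22 and 19.9 FPKM in Brg1 LKO. Here the Brg1 LKO livers were furthest apart of all 10 genes, with a ratio of 3.82. Replicate 1 was at 1.19 times the WT mean and replicate 2 at 4.55 times, the largest value among the 10. The means were 4.39 ± 0.653 and 12.6 ± 10.4 FPKM (SD, n = 2 each), a log2 difference of 1.21.

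The C1q chains A, B and C assemble into the recognition unit of the classical complement pathway, and their genes lie side by side on the minus strand of chromosome 4, C1qb from 136880129 to 136886187, C1qc from 136889804 to 136893065 and C1qa from 136895917 to 136898803, with 3 exons each. C1qa was at 12.0 and 11.7 FPKM in WT and at 14.0 and 27.1 FPKM in Brg1 LKO. C1qb was at 8.28 and 8.72 FPKM in WT and at 11.5 and 22.4 FPKM in Brg1 LKO, and C1qc at 5.51 and 5.32 FPKM and at 7.39 and 15.7 FPKM. For each chain both Brg1 LKO livers were above both WT livers, and the ratio between the Brg1 LKO livers was 1.93, 1.96 and 2.12 for C1qa, C1qb and C1qc. The group means were 11.9 ± 0.205 and 20.6 ± 9.25 FPKM for C1qa, 8.50 ± 0.311 and 16.9 ± 7.77 FPKM for C1qb, and 5.41 ± 0.134 and 11.5 ± 5.87 FPKM for C1qc (SD, n = 2 each). Relative to C1qa, the level of C1qc was 0.458 and 0.454 in WT and 0.526 and 0.579 in Brg1 LKO, and that of C1qb was 0.689, 0.744, 0.815 and 0.827 in the same order of livers.

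Compared liver by liver, all 10 genes had a higher mean in Brg1 LKO than in WT on the log2 scale, which held for 46.1% of all genes tested. A log2 difference above 1 was found in 3 of the 10, Folr2, Cd5l and Vsig4, against 0.64% of all genes. In 8 of the 10, all but Timd4 and Emr1, both Brg1 LKO livers were above both WT livers, which held for 10.7% of all genes. These shares stand beside counts that the choice of the genes already favoured, and nothing is read from them.

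Brg1 LKO replicate 2 was the highest of the 4 livers for 10 of 10 genes, against 41% of all genes tested, and it lay above both WT livers for 10 of 10, against 44.8%, and more than 2-fold above the WT mean for 10 of 10, against 3.26%. Brg1 LKO replicate 1 was above both WT livers for 8 of 10, against 19.1%, and more than 2-fold above the WT mean for 0 of 10, against 1.09%. The median log2 distance of the 10 genes from the WT mean was 0.29 in replicate 1, with a range from −0.25 for Timd4 to 0.89 for Folr2. In replicate 2 the median was 1.41, with a range from 1.07 for Marco to 2.17 for Cd5l. Over all genes tested the same medians were −0.17 and 0.12. The difference between the genotypes, a median of 0.87 on the log2 scale, thus rested mainly on 1 liver: it was 0.29 without replicate 2 and 1.41 without replicate 1. Rescaling the livers by their median ratios over all genes gave medians of 0.48 in replicate 1 and 1.28 in replicate 2. The shares over all genes depended on the scaling. After this rescaling replicate 1 was above both WT livers for 8 of 10, against 37.8% of all genes. Replicate 2 was then the highest liver for 10 of 10, against 29.9%.

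**Figure D2:**
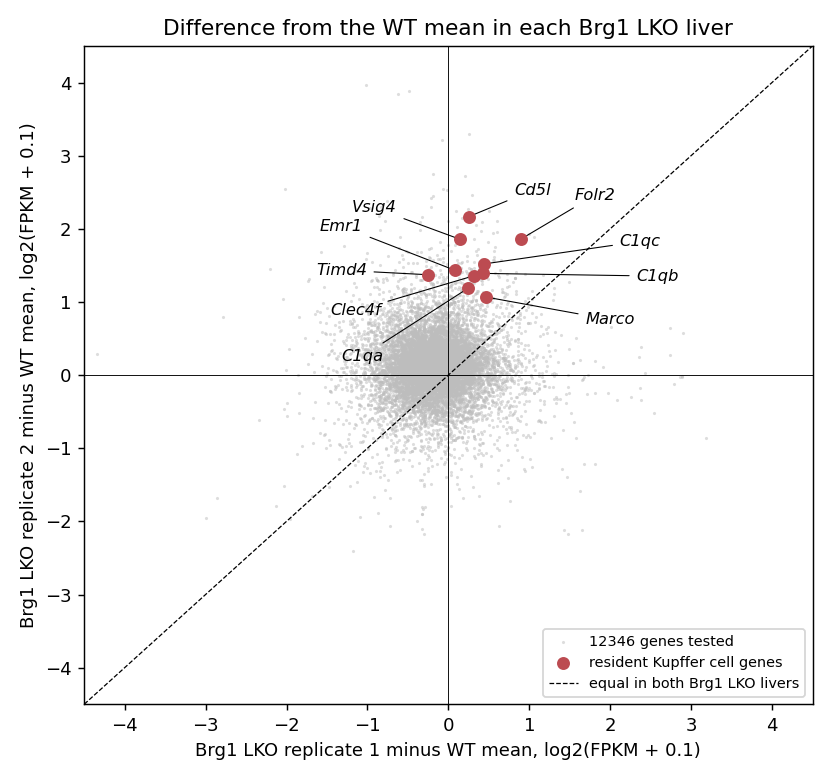
Difference of each gene from the WT mean on the log2(FPKM + 0.1) scale, in Brg1 LKO replicate 1 on the horizontal axis and in replicate 2 on the vertical axis. Red points are the 10 genes, grey points all genes tested, and the dashed line marks equal values in both livers. All 10 genes lie above 1 in replicate 2 and below 1 in replicate 1, where Timd4 is at −0.25.

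The genes did not differ by the same factor. The ratio of replicate 2 to replicate 1 ran from 1.54 for Marco to 3.82 for Cd5l with a median of 2.09, where the median over all genes above 0 in both livers was 1.26. Clec4f, Folr2 and the C1q chains formed a middle group between 1.93 and 2.12, and Emr1, Vsig4, Timd4 and Cd5l an upper one between 2.94 and 3.82. Relative to Clec4f, Cd5l was at 0.367 and 0.443 in WT, 0.385 in replicate 1 and 0.714 in replicate 2. Vsig4 per Clec4f was at 0.218, 0.246, 0.206 and 0.334 in the same order, so that replicate 2 stood above the other livers for both. Timd4 per Clec4f was 0.0415 and 0.0400 in WT, lowest in replicate 1 at 0.0261, and 0.0466 in replicate 2. C1qa per Clec4f stayed between 0.972 and 1.12 in the 4 livers.

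The list of 12 other Kupffer cell genes was written with earlier results of these data known. Above the filter were 10 of them, and 0 passed the study's threshold in either direction, against 0.437% of all genes that passed it higher in Brg1 LKO and 0.543% lower. Their median log2 difference was 0.35, and 8 of the 10 had a higher mean in Brg1 LKO, against 46.1% of all genes. Replicate 2 was the highest liver for 8 of the 10, against 41%, and replicate 1 was at a median of −0.04 from the WT mean. For 0 of the 10 were both Brg1 LKO livers above both WT livers, against 10.7% of all genes. The summed level was 21.9 and 31.8 FPKM in WT and 25.8 and 42.5 FPKM in Brg1 LKO, so the groups overlapped.

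Siglec1, the sialoadhesin CD169 of sinusoidal macrophages, had the widest difference of this list, with 0.679 and 0.570 FPKM in WT and 0.613 and 4.09 FPKM in Brg1 LKO. Replicate 1 was between the WT livers and replicate 2 at 6.55 times the WT mean (log2 difference 1.26, limma unadjusted p = 0.0522). Fcna, the ficolin that starts the lectin pathway of complement, was at 9.99, 15.9, 14.0 and 19.8 FPKM in WT replicates 1 and 2 and Brg1 LKO replicates 1 and 2. In the same order Cd163, the receptor that clears haptoglobin-bound hemoglobin, was at 1.06, 0.752, 1.01 and 2.13 FPKM. Of the genes that handle iron, the heme-degrading enzyme Hmox1 had log2 difference 0.35 and the iron exporter Slc40a1 −0.55, each with overlapping groups. Mrc1, the mannose receptor shared with endothelial cells, was at 0.884, 0.980, 0.598 and 1.44 FPKM, and its log2 difference was 0.01. Il18bp, which neutralises IL-18, was at 1.68, 1.50, 1.53 and 3.98 FPKM, again with replicate 2 apart. Clec1b, Cd207 and Vcam1 had log2 differences of 0.01, −0.03 and 0.36, and Cd209f and Kcna2 were under the filter.

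**Figure D3:**
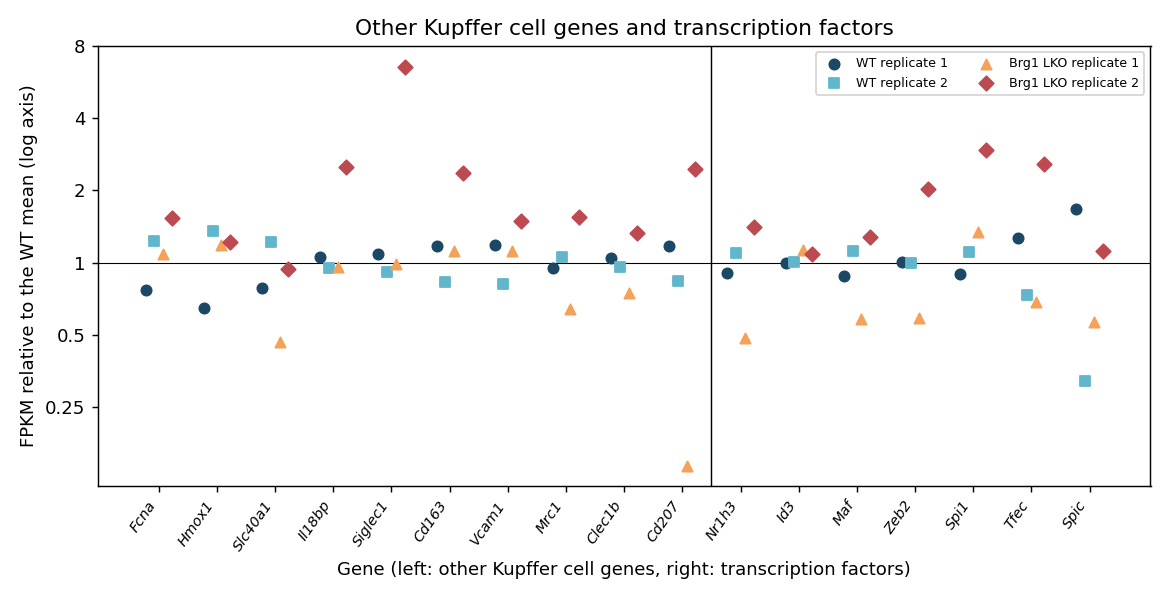
FPKM of the other Kupffer cell genes (left) and 7 of the transcription factors (right) above the filter, divided by the WT mean and shown on a log axis with 1 point per liver. Among the 10 genes on the left the WT and Brg1 LKO points overlap for each, and Brg1 LKO replicate 2 is the highest point for 8 of them.

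Of the Kupffer cell transcription factors above the filter, 0 of 8 passed the threshold in either direction, against 0.98% of all genes (median log2 difference 0.14). Spi1, which encodes PU.1, was at 0.328 and 0.406 FPKM in WT and at 0.491 and 1.08 FPKM in Brg1 LKO. Both Brg1 LKO livers were above both WT livers for 2 of the 8 factors, against 10.7% of all genes. Spi1 was 1 of them, with a log2 difference of 0.85 (limma unadjusted p = 0.051). The other was Id3, an inhibitor of helix-loop-helix factors, with 6.78, 6.79, 7.62 and 7.33 FPKM. Nr1h3, which encodes LXRα and is also expressed by hepatocytes, was at 32.3 and 39.2 FPKM in WT, lowest in replicate 1 at 17.3 FPKM and highest in replicate 2 at 50.1 FPKM. Zeb2, a repressor that keeps macrophage identity, was also lowest in replicate 1 and highest in replicate 2, with 0.633, 0.623, 0.369 and 1.27 FPKM. Maf had a log2 difference of −0.19, Tfec of 0.39 and the heme-induced factor Spic of −0.05. Irf8 was under the filter.

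Niche signals and receptors gave 0 of 13 genes past the threshold, against 0.98% of all genes, with a median log2 difference of 0.06. For 5 of the 13, Csf1, Bmp10, Dll1, Dll4 and Notch1, each Brg1 LKO value lay below each WT value, which held for 10% of all genes. For 2 of the 13 each lay above, against 10.7% of all genes. Csf1, the ligand of the CSF-1 receptor, was at 1.95, 2.78, 1.76 and 1.73 FPKM. The 5 lower genes were named after their values were seen, and their log2 differences ran from −0.49 for Dll4 to −0.22 for Bmp10. Near the filter were Bmp10, at 0.113, 0.133, 0.0777 and 0.105 FPKM, and Dll4, at 0.208, 0.224, 0.0751 and 0.187 FPKM. The list's most abundant genes were Smad4, the common mediator of TGF-β and BMP signals, with 4.13, 5.60, 4.86 and 6.31 FPKM, and Tgfbr2, the TGF-β receptor, with 3.49, 4.53, 6.18 and 3.99 FPKM. Csf1r, the CSF-1 receptor on which macrophages depend, was at 1.17 and 1.14 FPKM in WT and at 1.27 and 3.16 FPKM in Brg1 LKO. It was 1 of the 8 genes nearest to the profile of the 10 markers over the 4 livers.

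Genes shared by myeloid cells were read from another list. Of its 12 genes, 4 rose past the threshold, against 0.437% of all genes tested, and 0 fell, and 12 of 12 had a higher mean in Brg1 LKO, against 46.1% (median log2 difference 0.97). Higher macrophage markers in these livers prompted the choice of the genes described here. Neither these counts nor the p-values given here for macrophage genes are therefore independent evidence. The summed level was 32.7 and 24.8 FPKM in WT and 55.5 and 63.2 FPKM in Brg1 LKO, but Cd14 alone gave 25.1 FPKM of the sum in replicate 1. Without Cd14 the sums were 24.5 and 22.1 FPKM in WT and 30.4 and 59.5 FPKM in Brg1 LKO, and the median log2 distance of the list from the WT mean was 0.52 in replicate 1 and 1.34 in replicate 2 with Cd14 included. Cd68, a lysosomal membrane protein of macrophages, rose from 1.66 and 2.01 FPKM to 3.90 and 7.01 FPKM (log2 difference 1.47, standard error 0.37, limma unadjusted p = 0.00144), and its log2 difference was 1.05 without replicate 2. Ctss, the lysosomal protease cathepsin S, was at 2.70 and 2.50 FPKM in WT and at 4.09 and 7.19 FPKM in Brg1 LKO (log2 difference 1.03, limma unadjusted p = 0.0133). Laptm5, a lysosomal protein of hematopoietic cells, was at 1.94, 2.26, 3.15 and 6.43 FPKM (1.07, limma unadjusted p = 0.0147). The high-affinity Fc receptor Fcgr1 was at 0.143, 0.184, 0.267 and 0.670 FPKM (1.02, limma unadjusted p = 0.0263). Without replicate 2 the log2 differences of Ctss, Laptm5 and Fcgr1 were 0.63, 0.57 and 0.48 and no longer passed, and all 4 genes had adjusted p = 1 (limma, Benjamini-Hochberg). The most abundant genes of the list did not pass: the endotoxin co-receptor Cd14 was highest in replicate 1, with 8.20, 2.72, 25.1 and 3.72 FPKM, and the lysozyme gene Lyz2 was at 4.53, 5.13, 5.42 and 11.7 FPKM.

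Monocytes that enter the liver and the lipid-associated macrophages they become were read from 17 genes, of which 9 were above the filter. Ccr2, Cx3cr1, Trem2 and Gpnmb were among the 8 under it. Past the threshold were 1 higher and 0 lower, against 0.437% and 0.543% of all genes. Lgals3, the galectin of activated macrophages, was at 0.261 and 0.494 FPKM in WT and at 0.487 and 1.40 FPKM in Brg1 LKO, so the groups overlapped (log2 difference 1.02, limma unadjusted p = 0.0402, 0.34 without replicate 2). The 2 most abundant genes of the list, the tetraspanin Cd9 and the monocyte gene Plac8, were at 17.0, 17.0, 13.5 and 13.1 FPKM and at 3.14, 3.55, 4.10 and 6.11 FPKM. The summed level was 25.6 and 26.7 FPKM in WT and 22.7 and 28.5 FPKM in Brg1 LKO. Cd9 was the largest part of this sum in each liver and was lower in both Brg1 LKO livers than in WT. The median log2 distance of the 9 genes from the WT mean was −0.06 in replicate 1 and 0.85 in replicate 2. Replicate 2 was the highest liver for 6 of the 9, against 41% of all genes.

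The complement partners of C1q and Vsig4, which hepatocytes supply, gave 0 of 8 genes past the threshold, against 0.98% of all genes. Their median log2 difference was 0.02. C3, whose fragments Vsig4 binds, was at 1019 and 808 FPKM in WT and at 1040 and 1408 FPKM in Brg1 LKO, and Serping1, the inhibitor of C1, at 280, 252, 275 and 349 FPKM. For the uptake of dying cells and lipids, 0 of 9 genes passed, against 0.98% of all genes (median 0.26). Gas6, the bridging ligand of TAM receptors, was at 10.1, 12.6, 10.1 and 16.9 FPKM, and the fatty acid and lipoprotein receptor Cd36 at 6.09, 6.45, 7.41 and 12.2 FPKM. Replicate 2 was the highest liver for 5 of the 8 complement genes and 5 of the 9 uptake genes, against 41% of all genes.

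**Figure D4:**
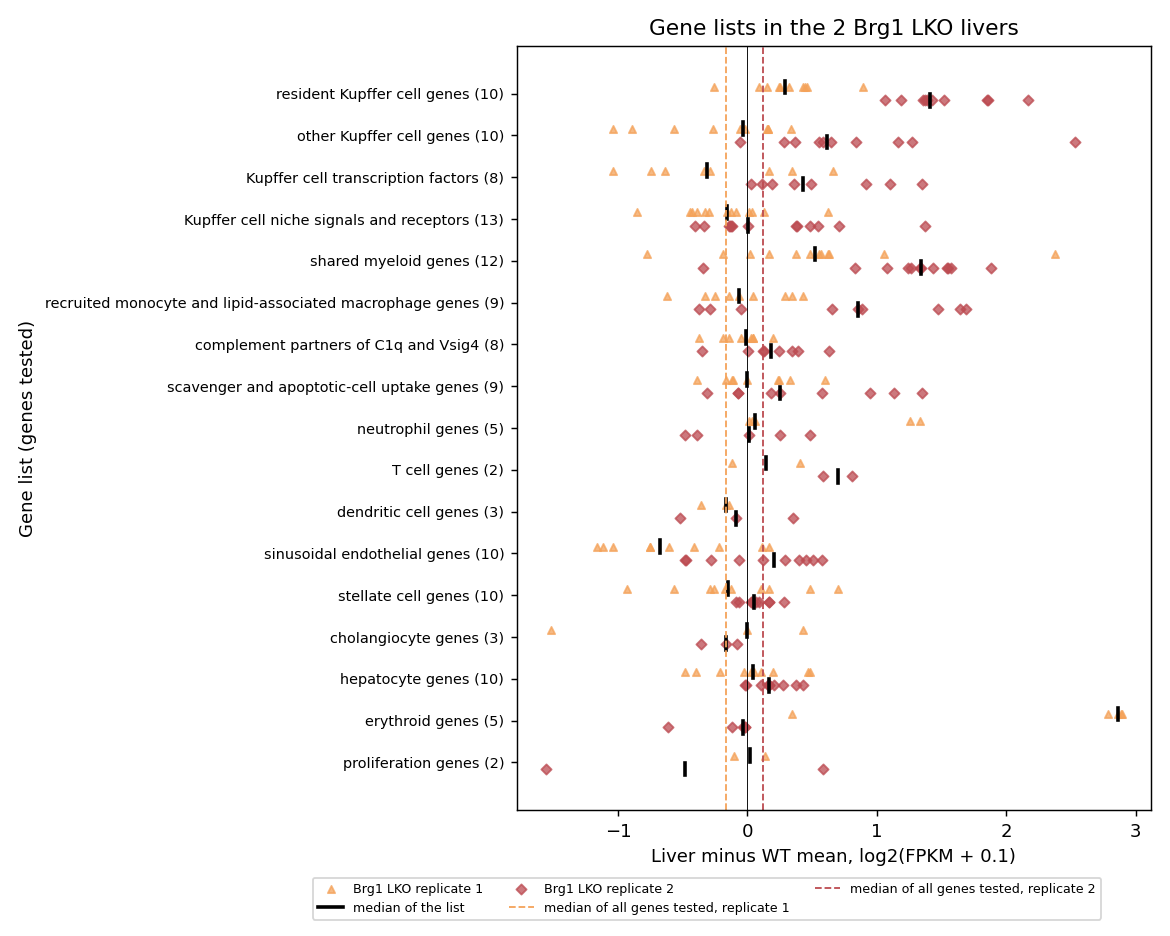
Distance from the WT mean on the log2(FPKM + 0.1) scale for each list gene above the filter (points) and its list median (black bars), in Brg1 LKO replicate 1 and replicate 2. Dashed lines are the medians of all genes tested. In replicate 2 the 10 resident Kupffer cell genes, at 1.41, and the shared myeloid genes, at 1.34, lie farthest above the WT mean, and in replicate 1 the erythroid genes do, at 2.86.

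Markers of other cells in the same livers were measured alongside. Hepatocyte genes, 10 of 10 above the filter, had a median log2 difference of 0.09 and summed to 30402 and 26024 FPKM in WT and to 26674 and 30185 FPKM in Brg1 LKO, with Alb at 12486, 10710, 11975 and 12436 FPKM and the transferrin gene Tf, listed as Trf, at 7878, 7253, 7720 and 8485 FPKM. All 5 erythroid genes were highest in replicate 1, against 12.2% of all genes, but Alas2, at 5.03, 7.43, 7.79 and 3.96 FPKM, only narrowly. The list summed to 21.9 and 40.4 FPKM in WT, 26.8 FPKM in replicate 2 and 181 FPKM in replicate 1, where the globin genes stood apart. Hbb-bs, a β-globin, passed the threshold through that liver, with 7.27, 13.8, 73.5 and 9.86 FPKM (log2 difference 1.42, standard error 0.66, limma unadjusted p = 0.0497, −0.022 without replicate 1), and Hbb-bt was at 4.08, 7.26, 38.2 and 5.02 FPKM. Sinusoidal endothelial genes gave 0 of 10 past the threshold, against 0.98% of all genes. They were lowest in replicate 1 for 7 of 10, against 46.6% of all genes. Their sum was 26.6 FPKM there, against 35.0, 35.7 and 36.4 FPKM in WT replicates 1 and 2 and Brg1 LKO replicate 2. Their most abundant genes, Pecam1 and Lyve1, were at 7.49, 8.35, 6.78 and 5.68 FPKM and at 7.44, 6.35, 7.73 and 4.88 FPKM. No gene of these lists was at 0 in all 4 livers. The part of these cell types in the difference between the Brg1 LKO livers was not tested.

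Genes of other leukocytes gave 0 past the threshold, which 0.98% of all genes passed. With so small a share, 0 in a short list does not show that its genes were unchanged. Of 11 neutrophil genes 5 were above the filter and 0 passed the threshold, and the sum was 11.6 and 4.48 FPKM in WT and 16.7 and 8.27 FPKM in Brg1 LKO, led by S100a9 with 8.64, 2.99, 12.3 and 6.10 FPKM and S100a8 with 1.61, 0.862, 3.13 and 1.20 FPKM. T cell genes summed to 0.237 and 0.322 FPKM in WT and to 0.388 and 0.829 FPKM in Brg1 LKO, with 2 of 7 above the filter and 0 past the threshold. These were Cd4, at 0.127, 0.0644, 0.0782 and 0.191 FPKM, and the adhesion receptor Cd2, at 0.0643, 0.0543, 0.111 and 0.179 FPKM. No B cell gene and no NK cell gene was above the filter, and 0 of 3 dendritic cell genes above it passed. Of the latter, the factor Zbtb46 was at 0.566, 0.547, 0.484 and 0.358 FPKM and the growth factor receptor Flt3 at 0.149, 0.265, 0.173 and 0.184 FPKM. Stellate cell and cholangiocyte genes gave 0 of 10 and 0 of 3 past the threshold, with the cholangiocyte median at −0.18. The stellate cell genes were led by the matrix proteins Ecm1, at 73.3, 91.9, 68.7 and 87.2 FPKM, and Dcn, at 14.9, 16.9, 14.0 and 17.8 FPKM. The cholangiocyte genes were led by the factor Sox9, at 1.16, 0.675, 0.244 and 0.779 FPKM, and the keratin Krt19, at 0.220, 0.365, 0.284 and 0.201 FPKM. Proliferation genes, 2 of 5 above the filter, gave 0 past the threshold and summed to 0.891 and 0.928 FPKM in WT and to 0.747 and 0.470 FPKM in Brg1 LKO. The mitotic kinase Cdk1 was at 0.347, 0.642, 0.532 and 0.0955 FPKM and its cyclin partner Ccnb1 at 0.194, 0.0302, 0.0822 and 0.194 FPKM.

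The genes most like the 10 markers over the 4 livers were found by the distance of their centred log2 values from the median profile of the 10, which was −0.45 and −0.41 in WT, −0.11 in replicate 1 and 1.04 in replicate 2. Among 7725 genes averaging 1 FPKM or more, the 8 nearest were Ero1lb, Tspyl2, Dnajb9, Ficd, 6430548M08Rik, Csf1r, Sel1l and Lyz2, at distances from 0.101 to 0.214 on the log2 scale. Csf1r and Lyz2 are the genes of this group that macrophages are known for. Ero1lb, an oxidase of the endoplasmic reticulum, was nearest, with 4.24 and 4.22 FPKM in WT and 4.94 and 11.5 FPKM in Brg1 LKO. Dnajb9, a co-chaperone of the same compartment, was at 25.8, 26.7, 33.7 and 65.3 FPKM, and Sel1l, which helps to remove misfolded proteins from it, at 29.3, 26.3, 35.8 and 71.2 FPKM. With 4 livers such likeness is a description of the order and spacing of 4 values.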

How the data were processed

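Total liver RNA of 4 mice was sequenced. According to the study's methods, the authors used Trimmomatic, then HISAT2 against GRCm38, and the deposited FPKM came from Cufflinks, while the submitters' processing notes list HISAT2 2.0.4 and StringTie 2.1.4. The labels name a BGIseq protocol and the methods stranded TruSeq libraries. FPKM scales each library to its total, with no further normalization stated. The table has 22103 entries, of which 5250 were at 0 in all livers and 27 symbols stored as dates were restored. Groups came from the sample labels. The replicates are separate livers. The p-values rest on the spread between these livers, which limma moderates toward the spread of other genes at a similar level. The p-value of a gene therefore does not measure the spread of that gene alone.

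All 12346 genes that averaged 0.1 FPKM or more were tested on log2(FPKM + 0.1) by limma (version 3.58.1, R 4.3.3, eBayes with a trend on the mean) and called at the study's threshold with Benjamini-Hochberg adjusted p beside it. Depth came from FPKM steps on transcripts of at least 2000 bases with GENCODE M21 lengths, matched for 98.3% of identifiers. Among low values, those of 20 reads or fewer, 88.5% to 89.5% were whole reads to a tolerance of 0.1, so the reads given are estimates and cover counting error only. The fit was also run on simulated data with the same spread for every gene and both groups. That checks the code and not how the test behaves at the unequal spreads of these livers. The alternatives were other pseudocounts, filters and scalings, no trend, a replicate block and each liver left out.

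The 10 genes and the 18 other lists (160 genes, of which 119 were above the filter) were chosen with earlier results of these data known. Named were the 10 genes, Smarca4, every list gene past the threshold, the 2 most abundant genes of each list with genes above the filter, all other Kupffer cell genes and, except for 1 that is not reported here, transcription factors above the filter, and the 8 genes with the nearest profile. Other genes named here only as under the filter were chosen after their values were seen. Sequences are from RefSeq on GRCm38.p6.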

Additional observations from a re-analysis of the deposited data

How the results depend on the processing

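Of the 8 alternatives with all livers, only the pseudocounts and scalings could change the value of a gene. Under these the median log2 difference of the 10 genes, 0.87, lay between 0.81 and 0.91. Without the trend, without the filter or with the block it was 0.87 by construction. The filter at 1 FPKM left out Timd4 and Emr1, and its 0.94 is the median of the remaining 8 genes. With 1 liver left out, the median of the 10 genes ranged from 0.29, without Brg1 LKO replicate 2, to 1.41, without Brg1 LKO replicate 1. With 1 liver left out, Timd4 ranged from −0.25, without Brg1 LKO replicate 2, to 1.37, and Hbb-bs from −0.022, without Brg1 LKO replicate 1, to 2.86. Over the 10 genes, the log2 differences ran from −0.25 to 0.89 without Brg1 LKO replicate 2, with Vsig4 at 0.15, Emr1 at 0.09, Cd5l at 0.25 and Clec4f at 0.32, and from 1.07 to 2.17 without Brg1 LKO replicate 1. Under the other alternatives 0 of 78 values reversed. Only those of the pseudocounts and scalings could have done so, since the rest equal the main values by construction. Both Brg1 LKO livers were above both WT livers for 8 genes after median-ratio rescaling and for 9 after quantile normalization, against 14.9% and 13.5% of all genes.

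The number of genes past the threshold, 121, was 18 with a pseudocount of 1, where Smarca4 was at −0.85 and missed the 2-fold limit, 80 with no filter and 68 among genes averaging 1 FPKM or more, and it ranged from 78 to 552 with 1 liver left out (231 without WT replicate 1, 78 without WT replicate 2, 552 without Brg1 LKO replicate 1, 450 without Brg1 LKO replicate 2). List genes past the threshold numbered 6, and 3 with no filter, 1 with a pseudocount of 1 and 4 to 22 with 1 liver left out. An adjusted p under 0.05 was reached by 2 genes with the filter at 1 FPKM and by 0 under the other alternatives with all livers. The cause of these shifts was not tested. With the replicate number as a block, 108 genes passed. The median of the 10 genes was 0.87, which a balanced block cannot change. Same-numbered livers deviated from their group means with a correlation of 0.031 over 12346 genes. This single correlation showed no pairing by number and cannot exclude a weak one. At 60 to 264 estimated reads, Timd4 and Emr1 had the least depth of the 10 apart from Folr2 in WT replicate 1, at 80.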
